A study of Mus musculus with 4 samples.

Results

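MHC class II-high cells were cells with transcripts of all 4 of Cd74, H2-Aa, H2-Ab1 and H2-Eb1, and they numbered 3318 of 19546 kept cells over 2 pooled single-cell experiments on cultured mouse T-cell progenitors. They were chosen by measured values: a cell had at least 500 detected genes, under 10% mitochondrial transcripts, at least 3 unique molecular identifiers (UMIs, counted transcript molecules) of each of the 4 genes, and under 3 UMIs each of Siglech, a marker of plasmacytoid dendritic cells, and of Cd79a, a marker of B cells. Experiment 1 held 1089 of them among 9332 kept cells (11.7%, exact Clopper-Pearson 95% interval 11.02 to 12.3%) and experiment 2 held 2229 among 10214 (21.8%, interval 21.0 to 22.6%). They had been proposed as conventional dendritic-like cells. Some dendritic genes were detected more often in them than in the other cells, but only clusters of 60 and 174 cells, both in experiment 2, met the marker rule for a dendritic name, so they are called class II-high cells here.

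Progenitors from the bone marrow of mice carrying a Bcl2 transgene were grown on OP9-Dll1, a stromal line that presents the Notch ligand Dll1, with IL-7 and Flt3-ligand at 10 ng/ml each. The overexpression arm used progenitors of B6.Bcl2 transgenic mice aged 8 to 10 weeks that received MSCV-Runx1-mCherry or MSCV-empty-mCherry on day 2 and were harvested on day 4 or 6. The double knockout arm used B6.Cas9;Bcl2 transgenic progenitors that received E42-gRunx1-humanNGFR with E42-gRunx3-mTurquoise on day 2, with 3 guide pairs per gene, and were harvested on day 5 or 8; its controls received the E42-gControl pair, whose guides target luciferase. All mice thus carried the Bcl2 transgene, and all sequenced cells had been sorted as live, lineage-negative, CD45+ and positive for the vector markers, so cells with a lineage marker on their surface were gated out. Culture time was 4 to 5 days in experiment 1 and 4 to 8 days in experiment 2. Each experiment was 1 pooled mRNA library with 8 antibody hashtags, each marking a separately stained culture. The hashtag columns name no condition, so hashtags are numbered 1 to 8 in column order, and no comparison of Runx1 gain, Runx1 and Runx3 loss or harvest day was possible.

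MHC class II molecules are pairs of an alpha and a beta chain that carry peptides to the surface of antigen-presenting cells. Cd74, the invariant chain, holds the groove until the protease Ctss trims it in endosomes and the chaperone H2-DM loads peptide, and the coactivator Ciita switches the whole gene set on through factors bound to the X and Y boxes of its promoters. Conventional dendritic cells transcribe these genes constantly, whereas many other cells, myeloid cells among them, transcribe them after interferon gamma, and most mouse T-lineage cells do not.

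The promoter windows below show matches to the X and Y boxes in some class II genes. H2-DMb1 and H2-DMb2, outside the rule, carry both and were among the genes with the largest differences in class II-high cells. H2-DMa, outside the rule and also called higher, carries no match to the X box, and a link between motif and level was not tested. Each run covers 140 to 41 bases before the RefSeq start in GRCm38.p6, 5′ to 3′ on the strand of the gene, with matches to AACNGATG (the core letters of the X box) and ATTGG (the Y box), searched on both strands, in capitals. The windows lie at chr17:34305727-34305826 (forward strand) for H2-Eb1, chr17:34325535-34325634 (forward strand) for H2-Eb2, chr17:34153051-34153150 (forward strand) for H2-DMb1, chr17:34145109-34145208 (forward strand) for H2-DMb2 and chr17:34287864-34287963 (reverse strand) for H2-Aa.
H2-Eb1: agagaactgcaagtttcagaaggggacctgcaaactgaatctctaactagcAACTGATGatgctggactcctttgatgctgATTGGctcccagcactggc
H2-Eb2: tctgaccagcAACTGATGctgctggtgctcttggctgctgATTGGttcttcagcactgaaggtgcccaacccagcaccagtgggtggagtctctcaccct
H2-DMb1: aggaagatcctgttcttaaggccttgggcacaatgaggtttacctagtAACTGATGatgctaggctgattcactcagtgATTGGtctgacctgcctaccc
H2-DMb2: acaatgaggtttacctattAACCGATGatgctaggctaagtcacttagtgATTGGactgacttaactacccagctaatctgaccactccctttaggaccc
H2-Aa: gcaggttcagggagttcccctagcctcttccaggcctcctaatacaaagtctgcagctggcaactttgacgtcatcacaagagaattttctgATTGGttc

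In the first 4 windows the Y box follows the X box after 22 to 23 bases, and the 2 motifs do not overlap. In the H2-Aa window only ATTGG matched. The promoters of H2-DMa, H2-Oa and H2-Ob were also searched and held no match to AACNGATG. Of 32851 RefSeq mouse promoters of 300 bases, 2.32% held AACNGATG and 37.4% held ATTGG on either strand. Both on the same strand, with the Y box 15 to 25 bases downstream, stood in 5 promoters (0.0152%): the 4 above and that of BC051142, a gene of the same region. The spacing was chosen after the sequences were seen, and a match is a description of letters and not of a bound factor.

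The class II minimum, the lowest UMI count among the 4 genes in a cell, had no gap at the rule's threshold. The cells just inside, with a minimum of exactly 3, numbered 172 in experiment 1 and 213 in experiment 2, and the cells just outside, with a minimum of 2, numbered 256 and 304. A minimum of at least 20 was reached by 54 class II-high cells in experiment 1 and 619 in experiment 2, and a minimum of at least 50 by 2 and 126. In class II-high cells the median UMI count of Cd74, the invariant chain, was 23 in experiment 1 and 47 in experiment 2, and that of H2-Aa, an alpha chain, was 9 and 14. Of the cells that passed the class II minimum, 1 was left out for Siglech in experiment 1, and 2 for Siglech and 24 for Cd79a in experiment 2, 1 of them for both.

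**Figure D1:**
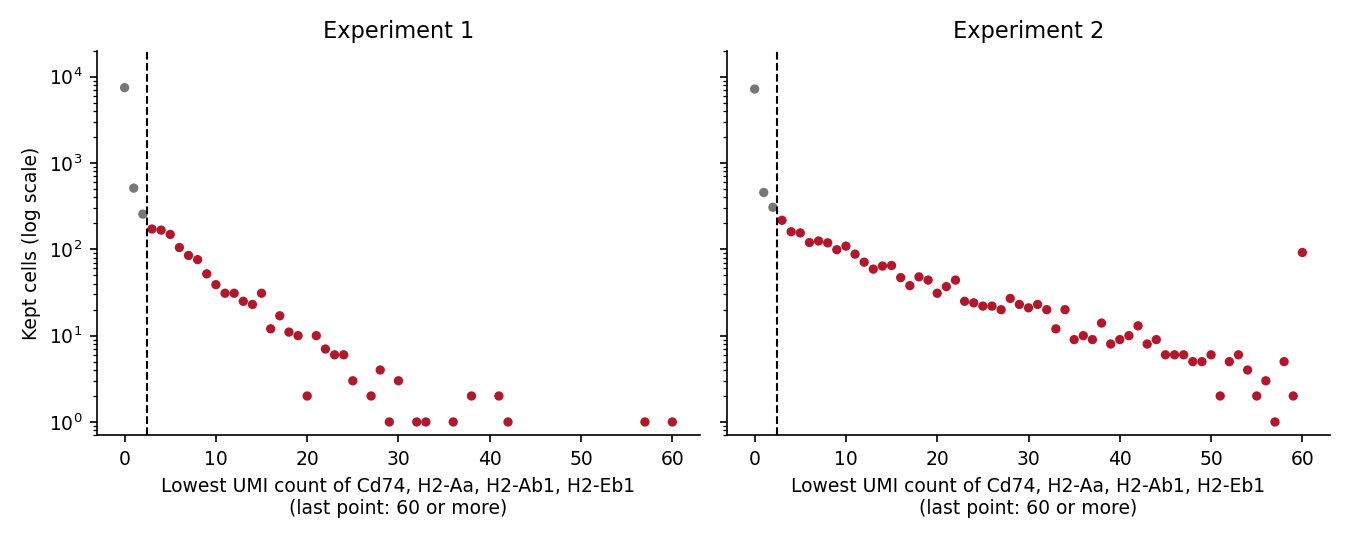
Number of kept cells (log scale) by the lowest UMI count among Cd74, H2-Aa, H2-Ab1 and H2-Eb1 in the cell, for each experiment; red points lie at or above the minimum of 3 and the dashed line marks it. Before the limits on Siglech and Cd79a, the counts fall without a break across the threshold, from 256 cells at 2 to 172 at 3 in experiment 1 and from 307 to 217 in experiment 2.

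Class II transcripts were also found outside these cells, so their share was measured in cells with markers of other types. In cells with at least 3 UMIs each of the mast cell and basophil genes Mcpt8 and Cpa3, H2-Aa was seen in 25.1% in experiment 1 and 32.8% in experiment 2 (median depth 30410 and 33996 UMIs), against 21.1% and 23.6% of all kept cells that were not class II-high (25046 and 26022 UMIs). Of the mast or basophil cells, 6.02% and 13.9% met the class II rule. Of the 39 and 559 cells with at least 3 UMIs each of the stromal collagen genes Col1a1 and Col1a2, 10.3% and 23.4% met it, and among stromal cells with a single hashtag 15.8% and 13.1% did. Neutrophil cells of experiment 2 with at least 3 UMIs each of Ngp and Camp met it in 6.79% of 221 cells, and in 1.42% of those with a single hashtag. Of the 786 and 1267 cells with at least 3 UMIs each of the T-lineage genes Cd3g and Il2ra, 6.87% and 9.08% met it. Among those with a single hashtag 6.06% and 5.20% did. Free RNA, doublets and transcription in these cells cannot be told apart here, and their part in the class II-high shares of 11.7% and 21.8% was not tested.

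Depth and doublets moved with membership. Class II-high cells had a median of 26906 UMIs in experiment 1 and 29273 in experiment 2, against 25046 and 26022 in the other kept cells. Hashtag doublets made up 11.02% of class II-high cells and 6.96% of the others in experiment 1, and 28.4% and 18.4% in experiment 2. The highest 5% of Scrublet doublet scores took in 8.17% and 8.43% of class II-high cells and 4.31% and 3.66% of the others. When every cell was thinned to 5000 UMIs before the rule, 1.40% of 9119 and 6.88% of 9899 cells passed, so the number of class II-high cells is tied to depth. No class II-high barcode was shared by the 2 libraries, although 34 kept barcodes were.

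The share of class II-high cells ran over an 11.6-fold range among the 8 hashtags of experiment 1 and a 11.97-fold range in experiment 2. Among single cells (1 hashtag called), the shares in experiment 1 were 4.43% for hashtag 1, 5.50% for hashtag 2, 15.9% for hashtag 3, 15.05% for hashtag 4, 3.32% for hashtag 5, 27.4% for hashtag 6, 2.37% for hashtag 7 and 18.3% for hashtag 8. Hashtags 3, 4, 6 and 8 stood above the other 4, with intervals that did not overlap theirs. In experiment 2 the shares were 3.90%, 9.12%, 46.7%, 26.7%, 37.9%, 22.8%, 4.53% and 9.03% for hashtags 1 to 8. Hashtags 3 to 6 were high there and the other 4 low, again without overlap of the intervals. These are cultures of unknown condition, and which of the study's treatments the high and low ones received was not tested.

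**Figure D2:**
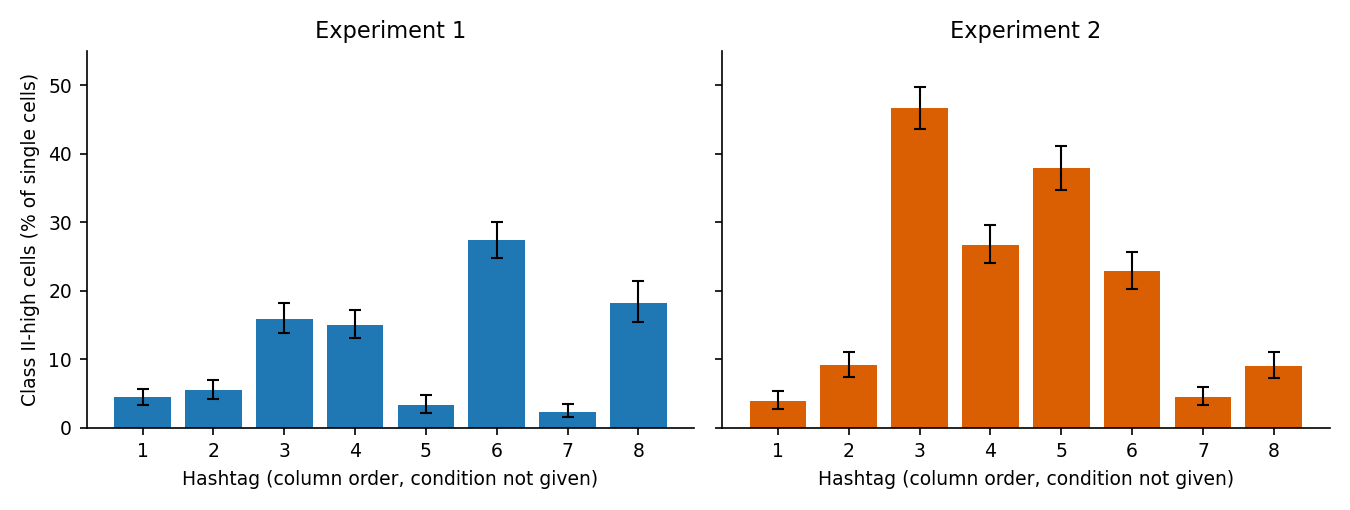
Class II-high cells as a percentage of the single cells of each hashtag in the 2 experiments; bars start at 0 and error bars are exact 95% binomial intervals for counting error only. In experiment 1 the shares ran from 2.37% to 27.4%, and in experiment 2 from 3.90% to 46.7%.

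The proposed name was checked against marker lists. Cst3, a cystatin that dendritic cells express strongly, was detected in 99.3% and 99.4% of class II-high cells but also in 95.7% and 95.6% of the others. With each cell thinned to 5000 UMIs, Cst3 was seen in 74.3% and 86.0% of class II-high cells against 67.5% and 72.2% of the others. Irf8, a factor of type 1 dendritic cells and monocytes, was detected in 58.9% and 73.4% of class II-high cells against 31.6% and 39.6% of the others. Itgax, the integrin CD11c of dendritic and other myeloid cells, was detected in 28.6% and 41.1% against 14.3% and 12.6%, and Batf3, a partner of Irf8, in 11.8% and 28.1% against 3.32% and 6.30%. Irf8, Itgax and Batf3 were thus seen more often in class II-high cells. With cells thinned to 5000 UMIs Irf8 was seen in 25.9% and 36.9% against 11.3% and 17.6%. Not every listed dendritic gene was seen more often. Fscn1, of the mature dendritic list, was detected in 0.735% against 0.837% in experiment 1 and in 9.78% against 6.71% in experiment 2. Xcr1 and Clec9a, receptors of type 1 conventional dendritic cells, were found in 0.184% and 0% of class II-high cells in experiment 1 and in 3.99% and 2.69% in experiment 2. Zbtb46, a factor of the conventional dendritic lineage, was found in 1.10% and 6.28%. Ccl22, a chemokine of mature dendritic cells, was found in none of the 1089 class II-high cells of experiment 1 and in 4.22% in experiment 2. At least 3 of 10 T progenitor markers were detected in 65.5% of class II-high cells and 73.1% of the others in experiment 1, and in 46.4% and 61.6% in experiment 2; thinned to 5000 UMIs, these shares were 26.5% and 39.8%, and 17.6% and 39.4%. Kit, the receptor that marks the labelled early stage, was detected in 74.4% of class II-high cells and 72.4% of the others in experiment 1, and in 52.7% and 49.5% in experiment 2. Thinned to 5000 UMIs, Kit was seen less often in class II-high cells, in 26.6% against 29.1% and in 13.6% against 15.6%. The T-lineage factor Tcf7 was detected in 70.1% against 74.0% and in 48.9% against 59.5%. At the low level of Xcr1, Clec9a, Zbtb46 and Ccl22, a cell with 0 UMIs is not shown to lack the gene.

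UMIs were summed over class II-high cells and over all other kept cells of each experiment and scaled to CPM (UMIs per 1000000 UMIs of the same cells), and a gene was called where the ratio of the 2 sums was at least 2-fold in the same direction in both experiments. Of the 7278 genes that averaged 10 CPM or more, outside the 6 genes of the rule, 38 were called higher (0.522%) and 30 lower (0.412%). The median ratio over all 7278 genes was 0.988 in experiment 1 and 0.992 in experiment 2. The cells were chosen on expression and the conditions of the 8 cultures in each experiment are not known, so no test was run over the cultures; the ratios' exact conditional 95% intervals cover counting error only, and the spread over hashtags is given beside them. The ratios describe the cells and test nothing.

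**Figure D3:**
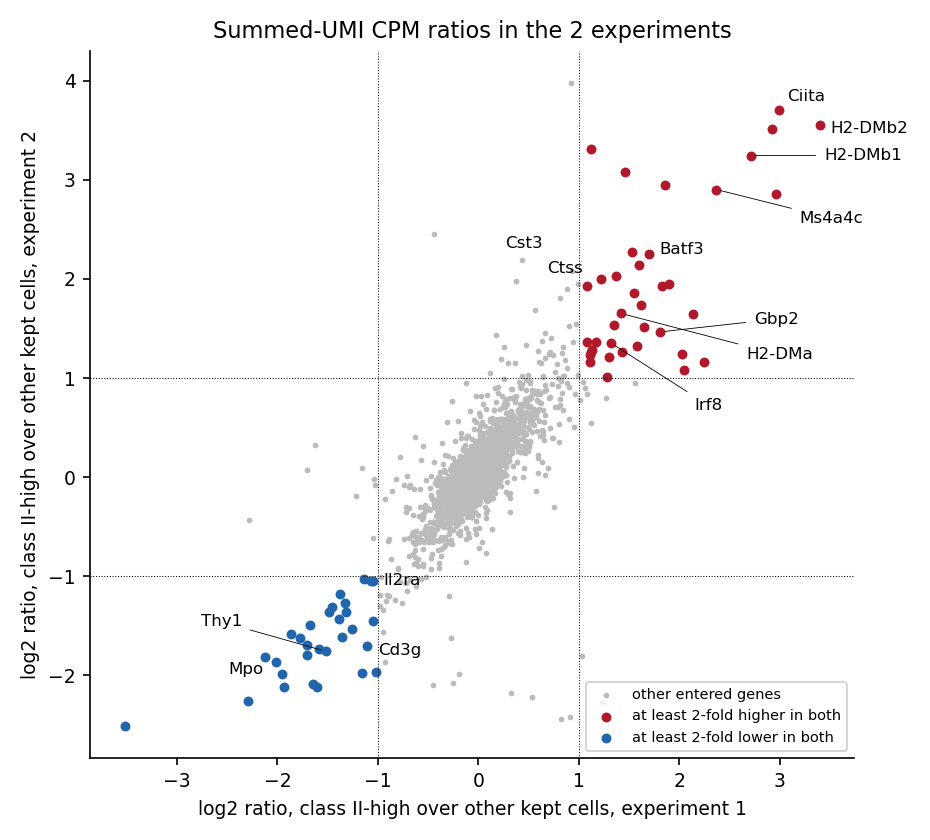
Ratio of CPM in class II-high cells to CPM in all other kept cells (log2 scale) in experiment 1 against experiment 2, for 7278 genes; dotted lines mark 2-fold. The 38 genes called higher (red) and 30 called lower (blue) lie in opposite corners, with Ciita, H2-DMb1 and H2-DMb2 among the highest.

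Genes that load peptide onto class II molecules were higher in class II-high cells. Of the 13 genes of the class II pathway list, 9 had enough counts and 6 were called higher, none lower, against 0.522% of all genes. Ciita, the coactivator, was at 42.5 CPM in class II-high cells and 5.35 CPM in the others in experiment 1, with a ratio of 7.95 (interval 7.35 to 8.62), and in experiment 2 it was at 62.7 and 4.80 CPM, with a ratio of 13.1 (12.2 to 13.97). Over the 8 hashtags of experiment 1, Ciita ran from 33.7 to 60.2 CPM (median 45.4) in class II-high cells and from 1.70 to 10.2 CPM (median 4.90) in the other cells, and in experiment 2 from 30.2 to 220 CPM (median 84.7) and from 1.02 to 9.45 CPM (median 6.00). The Ciita ranges of class II-high and other cells did not overlap in either experiment. Ciita was detected in 57.0% and 64.9% of class II-high cells and in 9.90% and 9.04% of the others.

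H2-DMb1, the beta chain of the peptide loader, led the genes of at least 50 CPM. In experiment 1 H2-DMb1 ran over the hashtags from 88.3 to 140 CPM (median 110) in class II-high cells and from 8.88 to 27.0 CPM in the others, a pooled ratio of 6.56 (6.26 to 6.87). In experiment 2 it ran from 141 to 491 CPM (median 254) against 6.73 to 29.0 CPM, a pooled ratio of 9.48 (9.15 to 9.82). All 8 hashtags of each experiment lay above every value of the other cells. H2-DMb2, a second beta chain gene that lies beside H2-DMb1 and may share reads with it, had ratios of 10.5 and 11.8. H2-DMa, the alpha chain, ran from 127 to 254 CPM against 55.3 to 82.7 CPM in experiment 1 and from 195 to 485 against 31.6 to 117 CPM in experiment 2, with ratios of 2.68 and 3.14 and no overlap in either. H2-Eb2, whose promoter window is shown above, held 102 UMIs in class II-high cells of experiment 2 and 7 in the others, a ratio of 43.3 (20.3 to 110), and 0 and 6 UMIs in experiment 1.

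Ctss, the protease that removes the invariant chain, had ratios of 2.33 and 3.99, and March1, a ubiquitin ligase that draws class II molecules off the surface, had ratios of 2.93 and 3.64. Both genes were higher in class II-high cells in 8 of 8 hashtags of each experiment. The H2-O chains, which restrain H2-DM, were not called: H2-Oa had ratios of 1.54 and 2.22, and H2-Ob, with too low a mean to enter, 1.18 and 1.72. The RFX subunits that bind the X box did not reach 2-fold in either experiment. Rfx5 had ratios of 1.33 (1.17 to 1.504) and 1.24 (1.11 to 1.37) and was higher in 7 of 8 and 6 of 8 hashtags, and Rfxank had ratios of 1.10 and 1.03; both averaged under 10 CPM and did not enter. Rfxap, which entered, had ratios of 0.907 and 0.981.

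**Figure D4:**
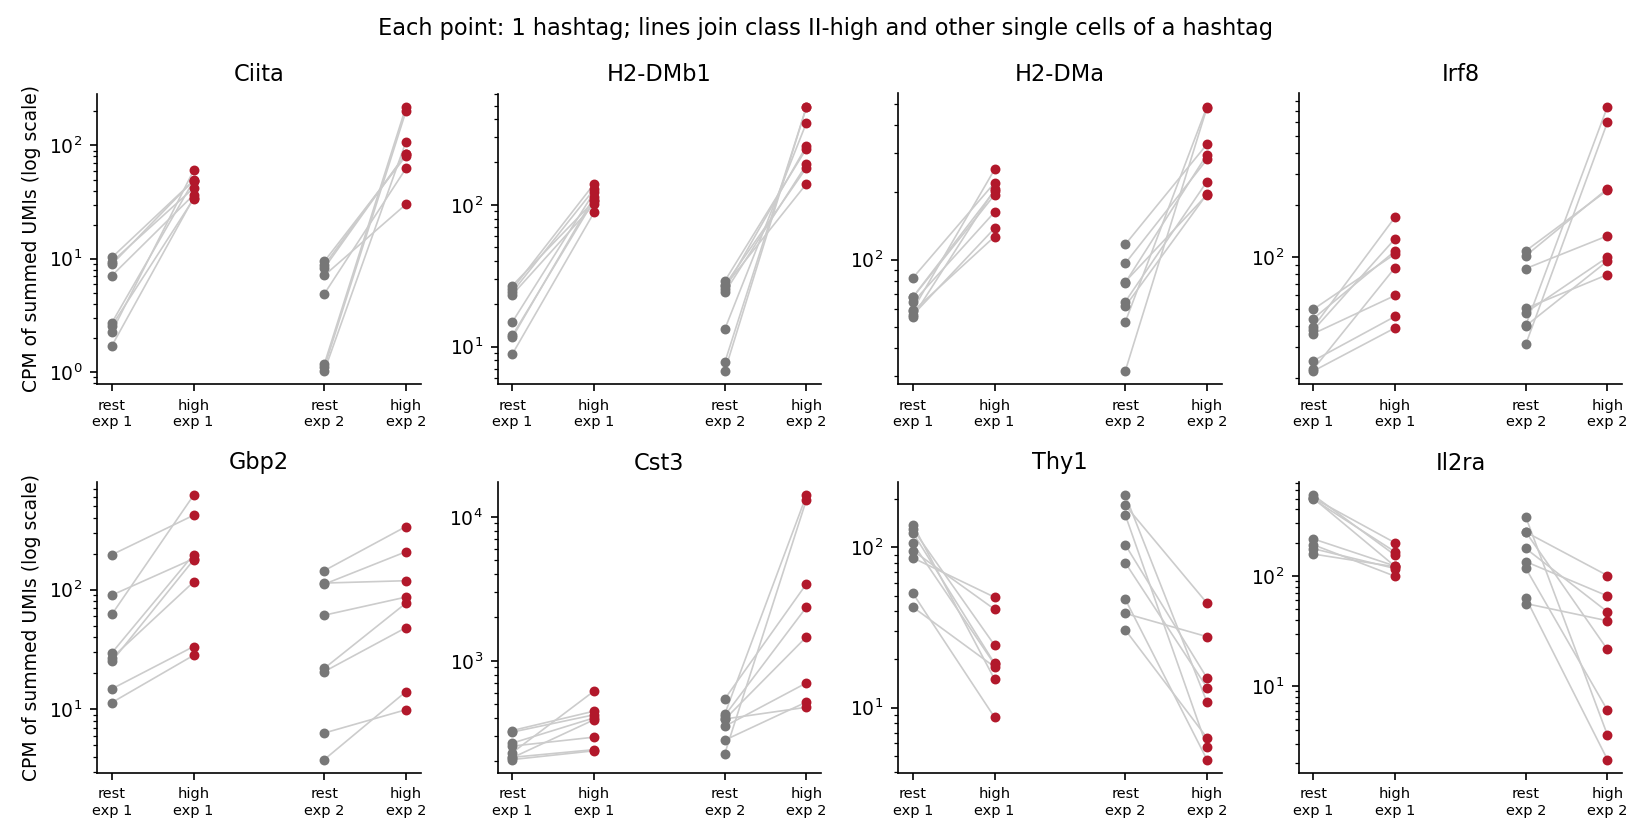
CPM of summed UMIs (log scale) of 8 genes in class II-high single cells (red) and all other single cells (grey) of each hashtag, with a line joining the values of a hashtag. Ciita, H2-DMb1 and H2-DMa are higher in class II-high cells in every hashtag without overlap of the ranges, Irf8, Gbp2 and Cst3 are higher in every hashtag with overlapping ranges, and Thy1 and Il2ra are lower in every hashtag.

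No gene of the class I pathway, which most cells express, was called. The list held 9 genes, among them Wdfy4, a factor of cross-presentation that makes no part of class I molecules, and all 9 entered, with a median ratio of 1.26 in experiment 1 and 1.37 in experiment 2. B2m, the light chain of class I molecules, was at 1132 CPM in class II-high cells and 902 in the others in experiment 1 (ratio 1.26). In experiment 2 it was at 1065 and 778 CPM (ratio 1.37). B2m ranges over the hashtags overlapped in both experiments. H2-T23, a nonclassical class I gene outside that list and among the 20 highest ratios of at least 50 CPM, had ratios of 1.73 and 1.89 and was higher in 8 of 8 hashtags of each experiment.

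Of 14 transcription factors of dendritic cells, 10 entered and 2 were called higher, against 0.522% of all genes, and none lower, against 0.412%. Irf8, which directs type 1 dendritic and monocyte fates, was at 87.2 CPM against 34.8 CPM in experiment 1 (ratio 2.50) and at 161 against 63.3 CPM in experiment 2 (2.55). Over the hashtags Irf8 ran from 38.9 to 170 CPM against 21.9 to 49.8 CPM in experiment 1, and from 79.0 to 737 against 31.2 to 108 CPM in experiment 2; it was higher in class II-high cells in 8 of 8 hashtags of each, with overlapping ranges. Batf3, a partner of Irf8 in type 1 dendritic cells, had ratios of 3.25 and 4.77 but few molecules in experiment 1, with 225 UMIs in class II-high cells and higher values in 6 of 8 hashtags; in experiment 2 it was higher in 8 of 8. Spi1, the myeloid factor PU.1, was not called but was higher in 8 of 8 hashtags of each experiment, with ratios of 1.502 and 1.72. Tcf4, which drives plasmacytoid dendritic cells, and Ikzf1, a lymphoid factor, stayed near equal, at 1.004 and 0.933 and at 1.01 and 0.977.

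The median ratio of the 10 dendritic factors was 1.38 and 1.33. Of 11 markers of type 1 conventional dendritic cells 3 entered, and Batf3 and Irf8 were called higher (median ratio 2.50 and 2.55). Of 10 of type 2 cells 4 entered and none was called (1.43 and 2.08). Of 10 conventional dendritic core markers 7 entered and none was called (1.24 and 3.87). Of 10 mature dendritic markers 4 entered, with none called higher and Socs2 called lower (0.91 and 1.499). Naaa, of the core list, had ratios of 0.738 and 5.48. Cst3, the marker given with the cells, was at 341 against 253 CPM in experiment 1 (ratio 1.35) and at 1878 against 411 CPM in experiment 2 (4.57), and the latter was 2.48 without the dendritic-like clusters described below. Over the hashtags of experiment 2 Cst3 ran from 476 to 14118 CPM in class II-high cells (median 1915), highest in hashtags 7 and 8, which held low shares of class II-high cells. Of 13 genes of costimulation and chemotaxis only the chemokine receptors Ccr2 and Ccr7 entered, and neither was called. Cd40, the receptor for T-cell help, was at 1.80 against 0.315 CPM in experiment 1 and at 6.13 against 0.556 CPM in experiment 2, higher in 8 of 8 hashtags of each. Cd86, a ligand for T-cell costimulation, was at 2.94 against 1.75 CPM and at 19.6 against 2.93 CPM.

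Of 13 monocyte or macrophage markers 6 entered, with a median ratio of 1.01 and 1.02, and Ms4a6c alone was called higher, none lower. Ms4a6c, a membrane protein gene of monocytes and macrophages, ran over the hashtags from 115 to 244 CPM in class II-high cells against 30.9 to 87.2 CPM in the others in experiment 1, and from 162 to 777 against 15.02 to 157 CPM in experiment 2, with no overlap in either and pooled ratios of 3.13 and 2.85. Ly86, a partner of a lymphocyte and myeloid surface receptor, had ratios of 3.07 and 3.33, and Ms4a4c 5.16 and 7.48; these 2 genes were chosen after their values were seen. Csf1r, the monocyte growth factor receptor, had ratios of 1.84 and 2.14 and Lyz2, lysozyme, was at 24.8 against 23.5 CPM in experiment 1 and 151 against 256 CPM in experiment 2. The summed level of the 13 markers was 311 against 188 CPM and 644 against 545 CPM, and their part in the class II result was not tested.

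A minority of genes known to respond to interferon gamma were called higher. A list of 22 such genes, drawn up after values had been seen, had 19 entered, with a median ratio of 1.74 and 1.64. Of these, 5 were called higher (Gbp2, Gbp5, Cxcl10 and Ciita itself among them), against 0.522% of all genes, and none lower. Gbp2, a guanylate-binding protein, ran from 28.3 to 617 CPM (median 179.8) in class II-high cells and 11.4 to 196 CPM (median 28.3) in the others in experiment 1, and from 9.94 to 337 (median 82.1) against 3.81 to 144 CPM (median 41.7) in experiment 2. It was higher in class II-high cells in 8 of 8 hashtags of each, with overlapping ranges and pooled ratios of 3.51 and 2.76. The spread between cultures was wider than the difference: the other cells of the highest hashtag had more Gbp2 than the class II-high cells of the lowest. Iigp1, an immunity-related GTPase, had ratios of 2.94 and 1.94 but was higher within only 2 of 8 hashtags in experiment 2, where its median ratio within hashtags was 0.852. Igtp, of the same GTPase family, was likewise higher in 2 of 8 hashtags there, with a median ratio of 0.906. Gbp5, another guanylate-binding protein, had ratios of 2.99 and 2.50, but within hashtags its median ratio in experiment 2 was 1.78, under 2-fold. Ifng, the gene of the cytokine itself, had 0 UMIs in class II-high cells of experiment 1 and 12 in experiment 2 (0.161 CPM against 7.98 CPM in the others).

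Some T-lineage genes were lower. Of 16 listed genes, 11 entered, 3 were called lower and none higher, against 0.412% of all genes called lower, and the median ratio was 0.737 in experiment 1 and 0.667 in experiment 2. Thy1, a surface protein acquired by T progenitors, ran over the hashtags from 8.71 to 48.8 CPM (median 18.8) in class II-high cells and 42.4 to 138 CPM (median 100) in the others in experiment 1, and from 4.75 to 44.9 (median 12.1) against 30.5 to 211 CPM (median 91.8) in experiment 2. Thy1 was lower in class II-high cells in all 8 hashtags of each experiment, with pooled ratios of 0.349 and 0.296 and overlap of the extremes. Il2ra, the CD25 chain that marks the next stage of T progenitors, had ratios of 0.484 and 0.483 and was lower in 8 of 8 hashtags of each. Cd3g, a signalling chain of the T-cell receptor complex, had ratios of 0.465 and 0.306, again lower in 8 of 8.

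Earlier T-lineage regulators differed less. Tcf7 was at 140 against 168 CPM in experiment 1 (ratio 0.838) and at 75.3 against 109 CPM in experiment 2 (0.692), lower in 7 of 8 hashtags of each. Gata3, a factor needed from the first T stages, had ratios of 1.01 and 0.897. Bcl11b, the factor of T commitment, had ratios of 0.574 and 0.528 and was lower in 8 of 8 hashtags of each, just short of the 2-fold call. Ratios within hashtags, over single cells only, were lower than the pooled ones for several, for a cause that was not tested: the median over hashtags was 0.183 and 0.157 for Thy1, 0.203 and 0.0808 for Cd3g, 0.301 and 0.118 for Bcl11b, 0.456 and 0.176 for Il2ra and 0.631 for Gata3 in experiment 1.

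The 10 lowest genes of at least 50 CPM also held 2 genes of granulocyte granules and 2 constant genes of the gamma delta receptor. Mpo, the myeloperoxidase of granulocyte progenitors, was at 14.2 against 54.7 CPM in experiment 1 (ratio 0.259) and 28.5 against 113 CPM in experiment 2 (0.253), lower in 8 of 8 hashtags of each. Elane, neutrophil elastase, had ratios of 0.230 and 0.285. The 10 listed granulocyte markers together had a median ratio of 1.17 in experiment 1 and 0.237 in experiment 2. Tcrg-C1 and Tcrg-C2, constant regions of the gamma chain of the T-cell receptor whose sequences are alike and whose reads may be split, had ratios of 0.314 and 0.355 and of 0.307 and 0.310. The remaining 4 of these 10 genes, Rgcc, Ctla2a, Akr1c13 and Chil3, lay between 0.254 and 0.448.

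The genes the study perturbed differed by less than 2-fold. Runx1 was at 73.9 CPM in class II-high cells and 99.5 in the others in experiment 1 (ratio 0.743) and at 62.4 and 74.8 CPM in experiment 2 (0.834), lower in 8 of 8 and 7 of 8 hashtags. Over the hashtags Runx1 ran from 26.3 to 195 CPM in class II-high cells and 38.2 to 242 CPM in the others in experiment 1, so the difference between cultures was larger than that between the cells. Vector transcripts and edited transcripts are not told apart by these counts. Runx3 had ratios of 0.960 and 1.23. Il7r, the receptor for the IL-7 in the medium, was the 1 growth factor receptor called among 5 entered of 7, against 0.412% of all genes called lower. Il7r was lower at 0.386 and 0.442 and in 8 of 8 hashtags of each experiment. Kit had ratios of 0.921 and 0.932. All 12 cell-cycle genes entered and none was called, with a median ratio of 0.984 and 0.940, so the class II-high cells carried cell-cycle transcripts at about the level of the rest.

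Levels were graded over the class II minimum, with no step at 3 UMIs, in cells under the limits on Siglech and Cd79a. In experiment 2 Ciita was at 3.22 CPM in cells with a minimum of 0, 16.0 at 1 to 2, 25.9 at 3 to 4, 45.4 at 10 to 19, 115 at 20 to 49 and 215 CPM at 50 or more. In experiment 1 Ciita was at 3.92, 18.1, 31.0, 53.8 and 114 CPM over the same classes up to 20 to 49. Cells with a minimum of 1 to 2 thus already had several times the Ciita of cells in which at least 1 of the 4 genes was at 0. Cst3 behaved otherwise: in experiment 2 it was at 409 CPM at a minimum of 0, 698 at 10 to 19, 2878 at 20 to 49 and 14432 CPM at 50 or more. Irf8 in experiment 2 was at 63.3 CPM in all cells that were not class II-high. It was near 100 CPM from 3 to 19 UMIs (103, 96.5 and 112 CPM at 3 to 4, 5 to 9 and 10 to 19). It reached 195 CPM at 20 to 49 and 779 CPM at 50 or more. Xcr1 was at 0.272 CPM at 10 to 19, 6.86 at 20 to 49 and 172 CPM at 50 or more. Tcf7 was at 97.0 CPM at 3 to 4 and 21.5 at 50 or more, and Thy1 at 40.9 and 20.1 CPM. Cst3, Irf8 and Xcr1 were thus higher in the 493 cells of experiment 2 at 20 to 49 UMIs than in those at 10 to 19, and highest in the 126 cells at 50 or more.

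**Figure D5:**
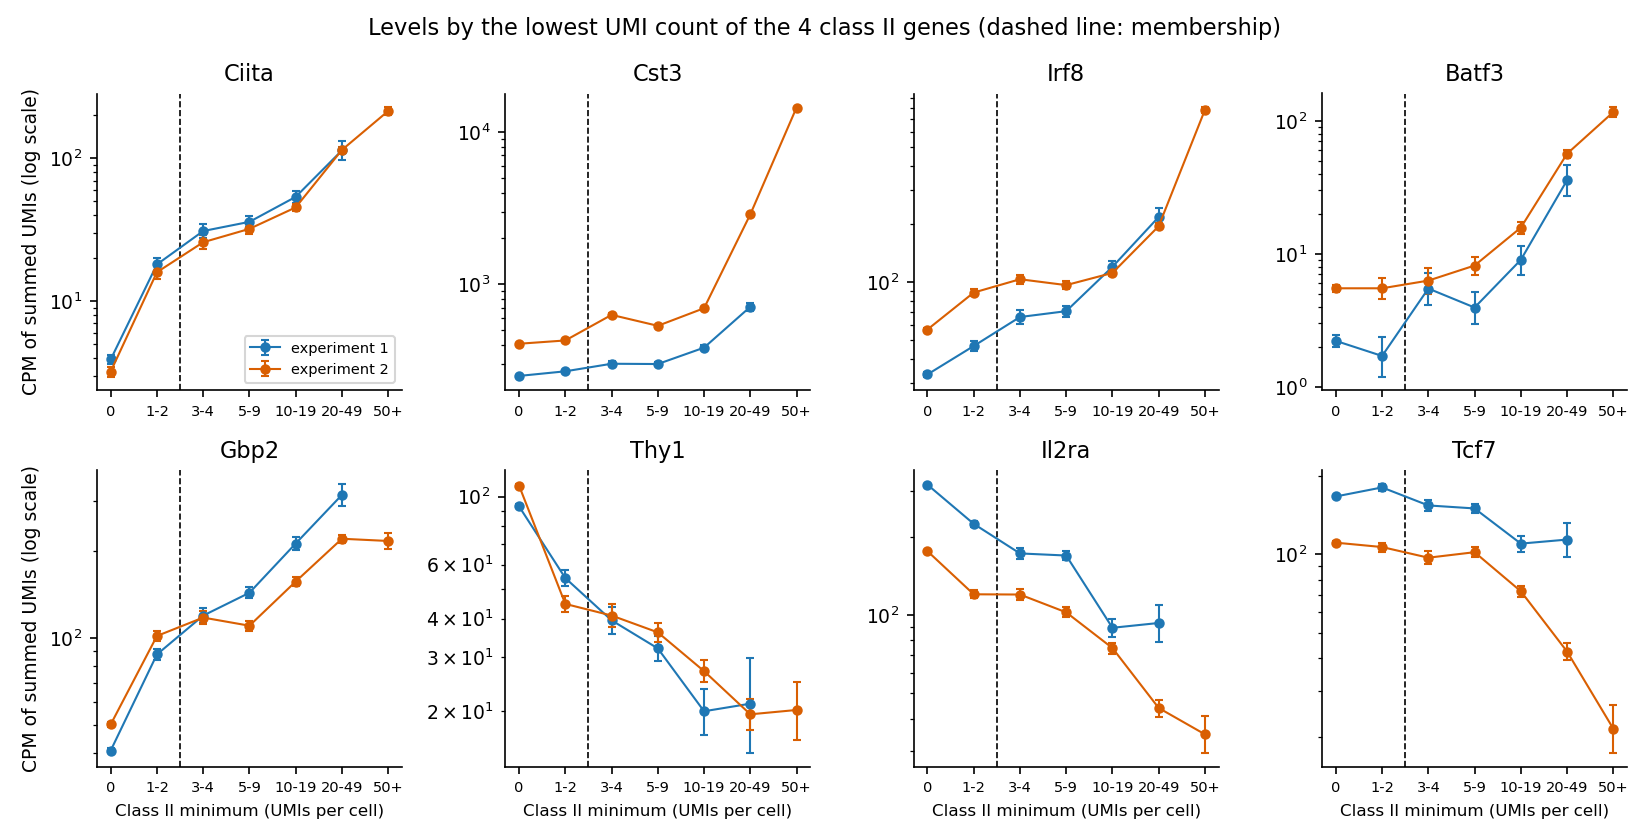
CPM of summed UMIs (log scale) of 8 genes by the class II minimum of the cells in each experiment; error bars are exact 95% Poisson intervals for counting error and the dashed line marks the rule. Classes of under 20 cells (experiment 1, 50 or more) are not drawn; Ciita climbs through every class drawn, while Cst3 in experiment 2 climbs from 698 CPM at 10 to 19 UMIs to 14432 CPM at 50 or more.

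Clustering the class II-high cells of each experiment alone described how they vary, and a cluster took a name only from at least 3 markers of a list among its 50 leading genes, with no other list ahead, and where under 50% of its cells were hashtag doublets. Experiment 2 gave 9 clusters, of which 3 took a name. A cDC1-like cluster of 60 cells (2.69%) was led by Xcr1 (543 CPM against 1.41 in the other class II-high cells), with Clec9a, Batf3, Irf8 (2428 against 119 CPM) and Cst3 (32853 CPM), and 54 of the 60 cells had at least 3 Xcr1 UMIs. Tcf7 was at 0.731 CPM in it. A Mature dendritic-like cluster of 174 cells (7.81%) was led by Il4i1, Ccl22, Cd83 and Ccr7, the chemokine receptor that takes dendritic cells to lymph nodes (685 against 16.6 CPM). It also held the complement genes C1qa and C1qb of macrophages: 61 of its cells had at least 3 Ccr7 UMIs, 27 had at least 3 C1qb UMIs and 4 had both, so it mixed at least these 2 kinds of cell, and its median depth of 12636 UMIs was the lowest of the 9 clusters. Among single cells only, such a cluster held 3.89% of class II-high cells, and with cells thinned to 5000 UMIs 2.34%, so its size depends on the processing. The third named cluster, T progenitor-like with 321 cells (14.4%), had 7 of the 10 T progenitor markers among its leading genes, with Cd3g at 375 against 35.1 CPM, Bcl11b at 100 against 6.76 CPM and Cst3 at 228 CPM.

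The dendritic-like clusters shared cultures, and the T progenitor-like cluster came mostly from others. Of the single cells in the Mature dendritic-like cluster, 61 carried hashtag 6, 37 hashtag 8 and 36 hashtag 5. Of those in the cDC1-like cluster, 19 carried hashtag 8, 11 hashtag 7, 8 each hashtags 5 and 6, and 3 the other 4 hashtags together. Of the T progenitor-like cluster, 191 carried hashtag 4 and 61 hashtag 2. An unnamed cluster of 327 cells with Ifitm6, Ms4a4c and Batf3 among its leading genes was spread over all 8 hashtags, with 22 to 86 cells in each. In it Ciita was at 167 CPM against 51.1 in the other class II-high cells, Cst3 at 3411 CPM and Tcf7 at 4.55 CPM, and its median class II minimum was 22 UMIs.

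The other 5 clusters of experiment 2 stayed unnamed. The largest, with 507 cells, was led by Hbb-bt, a haemoglobin gene, and genes of mitosis, with Cd74 at 901 CPM and a median class II minimum of 9 UMIs, and 226 of its single cells carried hashtag 3. A cluster of 346 cells led by Prtn3, a granule protease, had Ms4a6c at 411 against 199 CPM, and a cluster of 230 cells led by Tcrg-C1 had Il2ra at 180 against 71.8 CPM. In the last 2, 87.2% of 133 cells and 74.8% of 131 cells were hashtag doublets, with neutrophil genes such as Ngp leading the first and collagen genes such as Col1a1 the second, at a median of 45225 and 64414 UMIs.

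Experiment 1 gave 6 clusters and none was dendritic-like. A T progenitor-like cluster of 172 cells (15.8%) had Cd3g at 115 against 31.0 CPM, Tcf7 at 327 against 116 CPM and Zbtb16, a factor of innate-like lymphocytes, at 52.2 against 11.3 CPM. Its single cells came almost wholly from hashtags 3 and 4, with 91 and 75 of 167, and so did those of an unnamed cluster of 170 cells led by Pgam2, a muscle isoform of phosphoglycerate mutase, with 68 and 82. A cluster of 167 cells had the neutrophil genes S100a9 and Ngp among its leading genes and met the naming rule as Granulocyte-like. Only 2 of its cells had at least 3 S100a9 UMIs, so it was left without a name, by a check outside the rule. That check was not applied to the T progenitor-like cluster, where 27 of 172 cells had at least 3 Cd3g UMIs. In the cluster of 167 cells Csf1r was at 52.7 against 16.3 CPM, Irf8 at 194 against 70.5 CPM and Ms4a4c at 122 against 23.2 CPM. The clusters of 287, 205 and 88 cells were led by Ccl5, Tcrg-C2 and Prss34 and had no name; of the 205, 27.3% were hashtag doublets.

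Cells with Csf1r and Lyz2, 2 genes of the monocyte or macrophage list, were compared as the nearest other group in the same libraries. Only 2 and 10 cells had at least 3 UMIs of Siglech. The lineage of the Csf1r and Lyz2 cells was not tested. The 82 and 227 cells outside the class II-high set with at least 3 UMIs each of Csf1r and Lyz2 had Cd74 at 67.8 and 130 CPM, where class II-high cells had 979 and 2205 CPM. Cd74 is a gene of the rule and these cells failed the rule, so this difference was built into the choice of cells. Ciita in the Csf1r and Lyz2 cells was at 6.51 and 9.25 CPM, against 42.5 and 62.7 CPM in class II-high cells. It rose with the class II minimum, so its difference is tied to the same choice. Irf8 was higher in these Csf1r and Lyz2 cells, at 220 and 239 CPM against 87.2 and 161 CPM, and so were Ms4a6c, at 365 and 425 CPM against 165 and 231 CPM, and Mpo, at 434 and 330 CPM against 14.2 and 28.5 CPM. Tcf7 was at 21.0 and 14.4 CPM in them, against 140 and 75.3 CPM. Both groups were chosen on expression, so these differences carry no test. In Irf8 and Ms4a6c the pooled class II-high level lay between that of the Csf1r and Lyz2 cells and that of all other kept cells. In Mpo it lay below both, with all other kept cells at 54.7 and 113 CPM. The pooled level averages over unlike cells, since Irf8 varied widely among the class II-high clusters.

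Listed markers of other cell types gave no further called gene that was higher. The 10 granulocyte markers all entered, with Mpo and Elane called lower, against 0.412% of all genes. The 10 markers summed to 530 against 623 CPM in experiment 1 and 1623 against 6128 CPM in experiment 2. Their median ratio was 1.17 in experiment 1 and 0.237 in experiment 2. Camp (2.34 and 0.207), Ltf (1.88 and 0.186), Ngp (1.77 and 0.184), Lcn2 (1.45 and 0.216), S100a9 (1.25 and 0.221) and Prtn3 (1.10 and 0.698) changed direction between the experiments. S100a8 and Ctsg were lower in both. Of 11 B-lineage markers 3 entered and none was called. In experiment 1 Pax5 had 0 UMIs in class II-high cells and 18 in the others, and Ms4a1 had 0 in both. Of 9 stromal markers 7 entered and none was called, at 78.3 against 94.9 CPM and 797 against 851 CPM in sum. Of 12 innate lymphoid or NK markers 5 entered and none was called. Their part in the results above was not tested.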

How the data were processed

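The mRNA and hashtag libraries of 2 pooled 10x Chromium experiments were used. The deposited values are UMI counts per gene and cell barcode, made by the authors with Cell Ranger 3.0.0 on mm10 (GRCm38), per the submitters' processing notes, and the hashtag files hold deposited counts per antibody and barcode. The files list 31053 genes, of which 30934 IDs are in the gene name table, and no other values were used. The class II-high cells and all gene lists were chosen with earlier results of these data known, and the interferon gamma lists were added after values had been seen.

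Cells were kept at 500 genes or more and under 10% mitochondrial UMIs. Each cell's hashtag came from HTODemux (quantile 0.99, Seurat 5.3.0 under R 4.3.3); doublets stayed in the sums and were left out of values by hashtag, and Scrublet scores were computed in scanpy 1.11.5 but removed no cell. UMIs were summed over class II-high cells and over all other kept cells of each experiment, scaled to CPM and compared as a ratio with an exact conditional interval (scipy 1.17.1). A gene was called at 2-fold in the same direction in both experiments with a mean of at least 10 CPM, a count of 0 being set to a floor of 3 counts. The calling was tested on simulated data. No p-value was computed, since the cells were chosen on expression and the cultures' conditions are not known. Ranges over hashtags need at least 10 class II-high single cells in each.

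Genes named were all those of the lists and, at a mean of at least 50 CPM, the 20 with the highest and 10 with the lowest ratio, ranked by the ratio closer to 1. Clusters used 2000 variable genes, 30 components, 15 neighbours and a resolution of 0.5. Promoters came from RefSeq (GRCm38.p6). Total UMIs were 31632948 and 74493719 in class II-high cells and 212896683 and 221132218 in the others. Alternatives changed the UMI minimum, cell filter, doublets, depth, hashtag calling, scaling (edgeR 4.0.16, DESeq2 1.42.0), gene filter, fold and reference cells. Some genes that were measured are not reported here.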

Additional observations from a re-analysis of the deposited data

Results flagged for a closer look

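Each level in class II-high cells was compared over the 8 hashtags of an experiment, and 17 of 115 such sets had 1 hashtag far from the other 7. The cut used flags about 1 in 20 sets of independent values from 1 normal distribution. The hashtags are cultures of unknown condition, so that rate does not apply and no excess over chance can be read. In all 17 it was the hashtag with the highest level.

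In experiment 1, hashtag 7 was highest for Tcrg-C1 at 334 CPM, Tcrg-C2 at 193 CPM, Socs2, a cytokine signalling inhibitor, at 76.9 CPM and Il7r at 21.3 CPM. Hashtag 5 was highest for the integrin gene Itgax at 30.1 CPM and for Batf3 at 27.3 CPM, and hashtag 2 for Elane at 62.4 CPM. Hashtags 5 and 7 held only 29 and 28 class II-high single cells.

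In experiment 2, hashtag 4 was highest for the T-lineage genes Cd3g at 316 CPM and Bcl11b at 90.9 CPM; it held 191 single cells of the T progenitor-like cluster. Hashtag 6 was highest for Iigp1 at 259 CPM, Chil3 at 111 CPM, Cxcl10 at 99.3 CPM and Elane at 76.9 CPM. Hashtag 1 was highest for Ms4a6c at 777 CPM and Rfxank at 13.01 CPM, hashtag 7 for H2-DMb2 at 230.3 CPM and hashtag 3 for Tcrg-C2 at 58.9 CPM. The cultures' conditions are not known, and the cause of these levels was not tested.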

How the results depend on the processing

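All 114 ratios checked, of 57 of the named genes, kept their direction in the 4 alternatives run on summed counts. The ratios of the other named genes were not checked there. The share of class II-high cells, 11.7% and 21.8% in the 2 experiments, was 14.4% and 24.8% at a minimum of 2 UMIs, 8.04% and 18.2% at 5, 3.04% and 12.2% at 10, 13.2% and 22.9% under a stricter cell filter (1000 genes, 5% mitochondrial UMIs), and 1.40% and 6.88% with cells thinned before the rule. In experiment 2 it was 20.4% in single cells and 21.0% without the highest Scrublet scores. Leaving out each hashtag gave 8.83 to 12.7% and 16.2 to 22.7%. The 38 genes higher and 30 lower became 85 and 53 at a minimum of 10 UMIs, 216 and 71 with thinned cells, 8 and 12 at a mean of 50 CPM, 289 and 303 with every gene of at least 1 UMI, 6 and 2 at 4-fold, and 59 and 52 against cells with 0 class II UMIs. Lower genes outnumbered higher ones at 50 CPM and with every gene of at least 1 UMI. Single cells alone gave 43 and 42, and leaving out each hashtag from them gave 39 to 55 higher and 36 to 50 lower, the lower count passing 1.5 times 30 without hashtag 1, 2, 3, 4 or 8 of experiment 1. The median ratio within hashtags, an alternative chosen after seeing the data, gave 53 lower. Within hashtags 107 of the 114 ratios checked kept their direction and 28 moved by over 1.5 times. Another hashtag rule gave 25.8% for hashtag 6 of experiment 2. At least 3 T progenitor markers were found in 26.5% and 17.6% of thinned cells and in 62.4% and 39.6% of single cells. The Mature dendritic-like cluster fell from 7.81% to 3.89% in single cells and 2.34% in thinned cells. The cause of these changes was not tested. TMM and DESeq2 scaling moved the median ratio by at most 0.022 (log2).

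No paired analysis was possible because the replicate number that the labels share marks 1 library of each experiment. Ratios within hashtags describe cultures of unknown condition, and no test was run on cells chosen by expression. Depth limits membership and the detection of low genes, and counting intervals do not cover differences between cultures.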
